A study of Homo sapiens with 4 samples.

Results

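The genes described here are 29 genes that act at the G1/S boundary and in DNA replication: the E-type cyclins and E2F factors, the proteins that license and fire replication origins, the replicative polymerases with their clamp, and the enzymes that supply nucleotides. They were chosen by name, from their known function, among the 60623 gene rows of the deposited comparison table. No measured value entered the rule, but earlier results of these data were known when the genes were chosen. All 29 had enough reads to enter the test, which covered 14810 genes. The study measured RNA from T24, an established human bladder cancer cell line, in 4 libraries. The scramble control group had 2 libraries from T24 cells given a control sequence, and the miR-146a-5p group had 2 libraries from T24 cells overexpressing the microRNA miR-146a-5p. The labels give neither the vector or oligonucleotide used, nor the time after treatment, nor whether replicate libraries were made from cells grown apart. The p-values below therefore set differences against a spread that could be purely technical, and the results describe 1 cell line.

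A cell commits to replicating its DNA when cyclin E with CDK2 completes the release of E2F factors from RB, and the E2F factors then switch on most of the genes described here. Origins are licensed in G1, when CDC6 and CDT1 load the MCM2 to MCM7 ring onto DNA, and are fired in S phase, when CDC45 and the GINS proteins turn that ring into an active helicase. RNA of many of these genes is highest around S phase, so their level in an unsynchronised culture reflects in part how many cells are replicating. In bulk RNA, fewer cells at a given phase and less RNA per cell cannot be told apart. Bladder cancers often lose RB pathway control, and miR-146a-5p itself is best known for lowering IRAK1 and TRAF6, which act in innate immune signalling.

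The libraries held 20290055 to 22774090 estimated reads, and levels below are counts scaled to a library total of 1000000 (CPM) unless TPM, the authors' unit that also corrects for transcript length, is named. IRAK1, the label check, was at 498 and 716 CPM in scramble libraries 1 and 2 and at 108.1 and 109 CPM in miR-146a-5p libraries 1 and 2, so the RNA of this target went with the labels. The scramble libraries resembled each other less than the miR-146a-5p libraries did. Across tested genes the correlation of log2 CPM was 0.93 within the scramble pair, 0.99 within the miR-146a-5p pair, 0.98 between scramble library 1 and either miR-146a-5p library, and 0.94 between scramble library 2 and either one. In scramble library 2, genes whose transcripts are rich in G and C read high and genes poor in them read low, and values are given for each scramble library for that reason. KRT7, KRT8 and KRT18, keratins of simple and urothelial epithelium, were abundant. PPARG was at 28.3 to 45.4 CPM and FOXA1 at 25.8 to 39.4 CPM, while UPK3A, KRT5, KRT13 and GRHL3, of the same list of 18 urothelial genes, were at 0 in all 4 libraries. In that list ELF3 was at 0.938 and 1.32 CPM in the scramble libraries against 7.15 and 7.64 CPM, and KRT19 at 31.8 and 42.5 CPM against 15.8 and 14.5 CPM. Marker RNA of other cell types was low, with the 10 leukocyte markers summing to 12.7 to 17.2 CPM, the 8 fibroblast markers to 3.35 to 6.80 CPM and the 6 endothelial markers to 0.18 to 0.70 CPM.

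The microRNA is shown first, because its seed defines which of the 29 transcripts carry a matching site. Its mature sequence from RefSeq is encoded at chr5:160485372-160485393 on the plus strand of GRCh38.p14, and the capitals mark the seed, bases 2 to 8.
hsa-miR-146a-5p: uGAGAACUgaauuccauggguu

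A site was counted where a 3′ UTR of the GENCODE release 29 annotation (GRCh38) holds AGTTCTC, the complement of the seed, or the complement of bases 2 to 7 followed by A. Among the 29 genes, 5 (17.2%) hold such a match, against 21.0% of the 12343 tested genes with an annotated 3′ UTR. The matches are printed with flanking bases so that their strength can be compared, on the strand of the transcript and with the match in capitals. GINS1 and UHRF1 have an 8-mer, the longest kind of match, GINS2 has a 7-mer to bases 2 to 8, and CDC6 and E2F2 have a 7-mer to bases 2 to 7 with the A. IRAK1 is set beside them for reference and has 2 matches, both 8-mers.
GINS1: tgctaaactgtgAGTTCTCAtggtgtttt
UHRF1: tttctggtgtcaAGTTCTCAgaagttgct
GINS2: ctgggttcacacAGTTCTCccaccacag
CDC6: agtctgaatgttGTTCTCAcactccttt
E2F2: ccctccccaagtGTTCTCAacctccatt
IRAK1, first match in the transcript: tccggaagtcaaAGTTCTCAtggtcagaa
IRAK1, second match in the transcript: ctcatggtcagaAGTTCTCAtggtgcacg

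The matches lie at chr20:25448486-25448493 (GINS1, plus strand), chr19:4961138-4961145 (UHRF1, plus strand), chr16:85676763-85676769 (GINS2, minus strand), chr17:40303619-40303625 (CDC6, plus strand) and chr1:23506845-23506851 (E2F2, minus strand). The RNA of these 5 genes took no common place. UHRF1 and GINS1 were lower in both miR-146a-5p libraries than in both scramble libraries, CDC6 was higher in both, and GINS2 and E2F2 overlapped. With both controls in the fit none of the 5 was called. With scramble library 2 as the only control, the edgeR log2 fold change was -0.45 for UHRF1, -0.24 for GINS2 and -0.12 for GINS1. It was 0.07 for CDC6 and 0.50 for E2F2. With scramble library 1 as the only control, UHRF1 had -0.14, GINS1 -0.03, E2F2 -0.12, GINS2 0.12 and CDC6 0.15. By mean CPM, 16 of the 29 genes were below scramble library 2 and 11 were below scramble library 1. A lower value against scramble library 2 was therefore not particular to genes with a match. The levels of the 5 genes are given with their roles below. A match in the annotation is not a measured binding site.

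Across the 29 genes as a whole, the miR-146a-5p libraries lay inside the range of the scramble libraries. The summed level of all 29 was 4060 CPM in scramble library 1, 4556 CPM in scramble library 2, 4356 CPM in miR-146a-5p library 1 and 4303 CPM in miR-146a-5p library 2. The median log2 fold change over the 29 was -0.06, against -0.00 over all tested genes, with 13 positive and 16 negative values from -0.51 to 1.06. The median log2 ratio of the 29 was 0.05 against scramble library 1 and -0.13 against scramble library 2, so its sign depended on the control. With both scramble libraries in the fit, edgeR's quasi-likelihood test with Benjamini-Hochberg adjustment called none of the 29, and it called 0 of 14810 genes (0%) in all. The lowest adjusted p among the 29 was 0.970 and the lowest of any gene was 0.728. Before adjustment, 2 of the 29 (6.90%), CCNE1 and MCM6, had an edgeR p under 0.05, against 549 of all tested genes (3.71%). DESeq2 called 52 of the 16044 genes it adjusted (0.324%), and none of the 29, whose lowest adjusted p was 0.617. The authors' deposited table also marks 52 genes, 44 higher and 8 lower, none of them among the 29, and its lowest adjusted p for one of the 29 is 0.630, for CCNE1. With 2 libraries against 2, an exact two-sided permutation test of a single gene cannot go below a p of 0.333.

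Both miR-146a-5p libraries were above both scramble libraries for 8 of the 29 genes (27.6%), against 18.0% of all tested genes. These were CCNE1, CCNE2, CDC6, MCM6, MCM10, PCNA, RRM1 and RRM2. For 6 of the 29 (20.7%), CDC25A, CDT1, MCM2, GINS1, POLE and UHRF1, both were below, against 18.0% of tested genes. The levels of the other 15 overlapped. The scramble libraries differed over 2-fold from each other for 4 of the 29 (13.8%), CCNE2, POLA1, RFC3 and POLE2, against 24.5% of all tested genes, and the miR-146a-5p libraries did so for none of the 29. The median fold within the pair was 1.28 for scramble and 1.05 for miR-146a-5p. The share below was close to that of all genes, and the share above was larger by CPM. That share was not stable: by TPM 5 of the 29 (17.2%) were above both controls, and with offsets for G and C content and length 6 were. The share over all tested genes is not given for these settings. By TPM CCNE2, MCM10 and RRM2 were no longer above both controls. By TPM, which allows genes to be compared, PCNA was the most abundant of the 29 with a mean of 342 TPM, followed by MCM4 with 305 TPM and RRM2 with 212 TPM. CCNE1, with 9.02 TPM, and E2F2, with 1.25 TPM, were the least abundant.

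**Figure D1:**
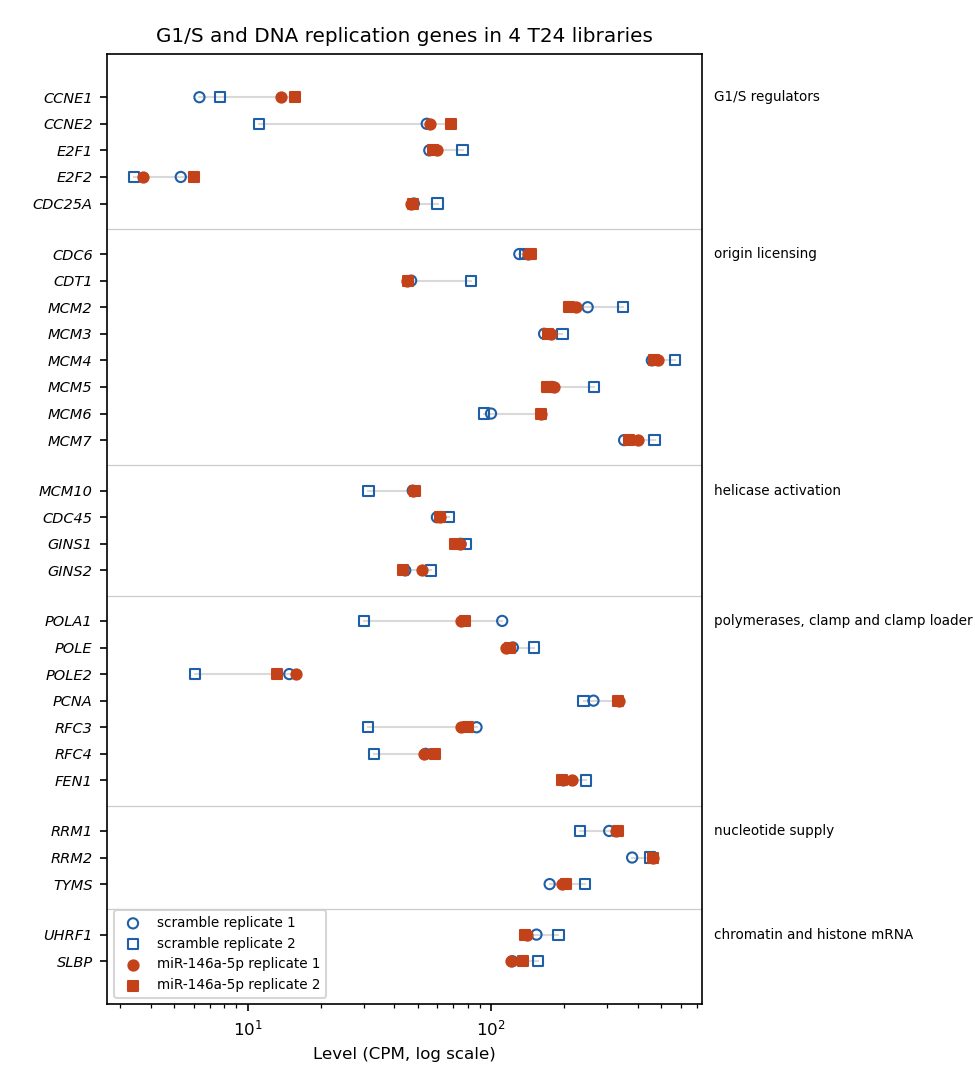
Level of each of the 29 genes in each of the 4 libraries, in CPM on a log axis, with genes grouped by role. The scramble points of CCNE2, POLA1, RFC3 and POLE2 lie far apart, while the miR-146a-5p points of CCNE1, MCM6 and PCNA lie to the right of both scramble points.

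The G1/S regulators held the largest difference of the 29, in CCNE1. This gene encodes cyclin E1, the partner of CDK2 that drives entry into S phase, and lies at chr19:29811898-29824308 on the plus strand of GRCh38. CCNE1 was at 6.34 and 7.73 CPM in scramble libraries 1 and 2 and at 13.7 and 15.7 CPM in miR-146a-5p libraries 1 and 2. Both miR-146a-5p values were well above both scramble values, and the 95% exact Poisson intervals of the counts, which cover counting error only, reached 8.96 CPM at most in the scramble libraries and 12.2 CPM at least in the miR-146a-5p libraries. The means were 7.04 ± 0.98 CPM (SD, n = 2) and 14.7 ± 1.40 CPM (SD, n = 2), a fold of 2.09. The edgeR log2 fold change was 1.06 ± 0.24 (SE), with an unadjusted p of 0.0100 and an adjusted p of 0.970. The gene rests on few reads, from 142 to 318 per library.

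CCNE2 encodes cyclin E2, which shares the role of cyclin E1, and its 2 scramble values were further apart than those of any other of the 29. Its levels were 54.4 and 11.1 CPM in scramble libraries 1 and 2 and 56.1 and 68.5 CPM in the miR-146a-5p libraries. Both miR-146a-5p values exceeded both scramble values, but scramble library 1 lay close to miR-146a-5p library 1 and the scramble values differed 4.90-fold from each other. The scramble mean was 32.8 ± 30.6 CPM (SD, n = 2) and the miR-146a-5p mean was 62.3 ± 8.73 CPM (SD, n = 2). The edgeR log2 fold change of 0.92 ± 0.78 (SE, adjusted p = 0.970) was within that spread. The fold was 1.14 against scramble library 1 and 5.61 against scramble library 2. The CCNE2 transcript has 36.9% G and C, the lowest of the 29, and its exons overlap those of INTS8 on the other strand.

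CCNE1 made up 15.5% and 52.4% of the summed cyclin E TPM in scramble libraries 1 and 2, and 30.2% and 27.5% in the miR-146a-5p libraries. The balance of the cyclin E genes therefore differed more between the scramble libraries than between the groups.

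The other G1/S regulators were close to the controls. E2F1, the activating transcription factor that RB holds back, was at 55.7 and 76.4 CPM in the scramble libraries and at 59.9 and 57.6 CPM in the miR-146a-5p libraries, inside the scramble range. E2F2, a second activator of the family with a 7-mer seed match, was at 5.32 and 3.42 CPM against 3.71 and 6.01 CPM. These E2F2 values overlap and rest on the lowest level of the 29. CDC25A, the phosphatase that removes the inhibitory phosphates from CDK2, was at 48.1 and 60.2 CPM against 46.7 and 48.0 CPM. Both its miR-146a-5p values were lower, by less than the gap between the scramble libraries.

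Among the licensing factors, MCM6 stood above both scramble libraries while its partners in the ring did not. MCM6 encodes a subunit of the MCM2 to MCM7 helicase and lies at chr2:135839626-135876426 on the minus strand. Its levels were 99.9 and 93.6 CPM in scramble libraries 1 and 2 and 161 and 160.0 CPM in the miR-146a-5p libraries. The groups were far apart relative to the spread within each, with means of 96.8 ± 4.46 CPM and 160.3 ± 0.50 CPM (SD, n = 2 each). The fold was 1.66 and the log2 fold change was 0.73 ± 0.17 (SE), with an unadjusted edgeR p of 0.0111 and an adjusted p of 0.970. It was 1.60-fold higher against scramble library 1 and 1.71-fold higher against scramble library 2, so both controls gave nearly the same value.

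MCM2, another subunit of the ring, was at 249.2 and 347 CPM in the scramble libraries and at 223 and 209 CPM in the miR-146a-5p libraries. Both miR-146a-5p values were lower, the nearer scramble library being library 1. The scramble mean was 298 ± 69.1 CPM and the miR-146a-5p mean 216 ± 10.03 CPM (SD, n = 2 each). The log2 fold change was -0.46 ± 0.22 (SE; edgeR adjusted p = 0.970). MCM2 exons overlap those of TPRA1 on the other strand, and the library kit is not stated to keep strand.

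CDT1, which loads the ring onto origins and is destroyed once S phase starts, was at 46.9 and 82.6 CPM in the scramble libraries and at 45.3 and 45.6 CPM in the miR-146a-5p libraries. The miR-146a-5p values lay just under scramble library 1 and far under scramble library 2. The means were 64.8 ± 25.2 CPM and 45.5 ± 0.24 CPM (SD, n = 2 each), and the log2 fold change was -0.51 ± 0.33 (SE; edgeR adjusted p = 0.970). The fold was 0.969 against scramble library 1 and 0.551 against scramble library 2. With 64.9% G and C, CDT1 is the richest of the 29, at the other end of the scale from CCNE2.

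The remaining licensing genes lay near or between the scramble libraries. CDC6, the ATPase that works with CDT1 and carries a 7-mer seed match, was at 131 and 137 CPM against 142 and 146.1 CPM, slightly above both controls. MCM3 was at 165 and 196 CPM against 176 and 171 CPM, and MCM4 at 457 and 569 CPM against 483 and 465 CPM. Both subunits were inside the scramble range. MCM5 was at 178 and 264 CPM against 181 and 170.3 CPM, close to scramble library 1 and below scramble library 2. MCM7 was at 352 and 469 CPM against 400.1 and 368 CPM, again between the controls.

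The ring holds 1 copy of each of its 6 subunits, so their shares of the summed MCM2 to MCM7 RNA were compared in TPM, which is per length. The summed level was 741 and 892 TPM in the scramble libraries and 790 and 791 TPM in the miR-146a-5p libraries, inside the scramble range. MCM6 made up 4.85% and 3.29% of that sum in the scramble libraries and 6.90% and 6.95% in the miR-146a-5p libraries. MCM2 made up 13.4% and 13.8% against 10.6% and 10.1%, and MCM5 9.75% and 10.8% against 8.97% and 8.25%. The MCM6 share was thus above both controls and the MCM2 and MCM5 shares were below both, while the shares of MCM3, MCM4 and MCM7 overlapped. MCM6 was the least abundant subunit in all 4 libraries. These are shares of RNA, and no protein was measured.

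**Figure D2:**
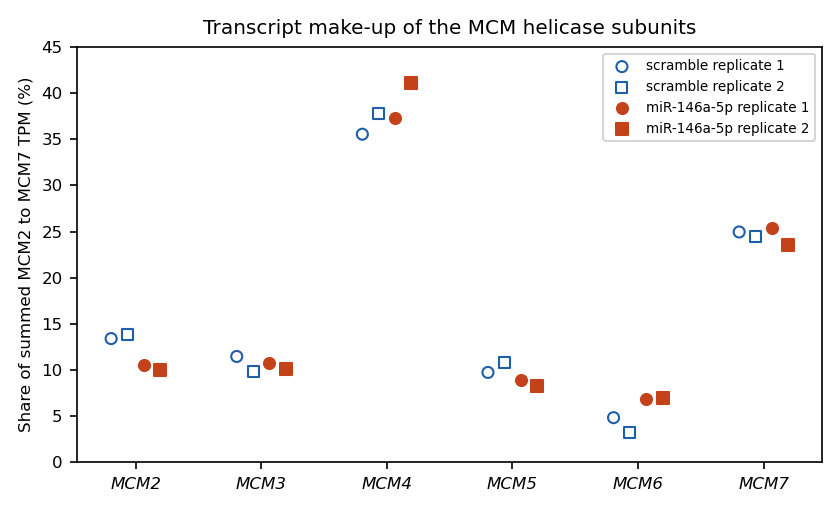
Share of each MCM subunit in the summed MCM2 to MCM7 RNA, in percent of TPM, with 1 point per library. The MCM6 points of the miR-146a-5p libraries, near 6.9%, lie above both scramble points, and the MCM2 points, near 10.1% to 10.6%, lie below both.

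E2F factors bind promoters of S phase genes through a short GC-rich element, and the promoters of the genes described here were searched for 4 of its forms, TTTGGCGC, TTTCGCGC, TTTCCCGC and TTTGCCGC, on both strands. RefSeq promoter entries (GRCh38.p14), which run from 250 bases before the start to 50 after it, were matched for 26 of the 29 genes. At least 1 form was found in 18 of the 26 (69.2%), against 3.99% of the 27305 genes in the promoter table. Taken singly over all 35116 promoters, TTTGGCGC was found in 0.652%, TTTCGCGC in 0.515%, TTTCCCGC in 1.63% and TTTGCCGC in 0.607%. The promoters of the genes with the largest and the most opposed differences are printed so that their elements can be compared, with matches in capitals. TTTGGCGC and the reverse complement of TTTCGCGC overlap in MCM6, and TTTCGCGC overlaps its own reverse complement in MCM2, so that each run of capitals there holds a pair of matches.
MCM6, chr2:135876494-135876643, minus strand, bases -200 to -51: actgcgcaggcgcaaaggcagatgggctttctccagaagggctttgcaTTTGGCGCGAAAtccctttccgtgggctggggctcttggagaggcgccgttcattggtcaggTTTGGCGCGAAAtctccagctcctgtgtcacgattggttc
MCM2, chr3:127598281-127598430, plus strand, bases -130 to 20: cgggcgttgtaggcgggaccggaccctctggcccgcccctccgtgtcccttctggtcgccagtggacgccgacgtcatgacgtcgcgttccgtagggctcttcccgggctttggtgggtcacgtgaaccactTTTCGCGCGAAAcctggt
CDT1, chr16:88803639-88803788, plus strand, bases -150 to -1: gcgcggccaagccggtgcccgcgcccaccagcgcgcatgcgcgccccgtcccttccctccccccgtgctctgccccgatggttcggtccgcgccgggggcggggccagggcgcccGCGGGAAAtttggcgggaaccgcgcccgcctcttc
CCNE1, chr19:29811841-29811990, plus strand, bases -150 to -1: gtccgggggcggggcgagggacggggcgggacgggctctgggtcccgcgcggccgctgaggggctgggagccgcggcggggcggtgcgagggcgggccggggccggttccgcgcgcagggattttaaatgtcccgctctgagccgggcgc

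MCM6 holds 4 matches in 2 separate runs, MCM2 holds 2 in a single run, CDT1 holds 1 on the minus strand, and none of the 4 forms is in the CCNE1 entry. Genes with a match lay on both sides of the controls, with MCM6, PCNA and CDC6 above both and MCM2, CDT1, CDC25A, GINS1, POLE and UHRF1 below both. A match describes letters only, and binding was not measured.

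The genes that turn the loaded ring into a moving helicase were near the controls. MCM10, which binds the ring as it starts to unwind DNA, was at 47.7 and 31.4 CPM in the scramble libraries and at 48.0 and 48.6 CPM in the miR-146a-5p libraries. It was level with scramble library 1 and above scramble library 2. CDC45 was at 59.9 and 67.4 CPM against 61.8 and 61.8 CPM, inside the scramble range. GINS1, whose transcript has an 8-mer seed match, was at 74.9 and 79.0 CPM against 74.2 and 70.9 CPM. Both miR-146a-5p values were lower, but the log2 fold change of -0.09 was smaller than its standard error of 0.18 (edgeR adjusted p = 0.972). The GINS1 value depended on the processing, being -0.44 with offsets for G and C content and length and -0.23 by TPM. GINS2, with a 7-mer, was at 44.4 and 56.8 CPM against 52.3 and 43.6 CPM, which overlap.

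In the synthesis machinery PCNA was above both controls, and 3 of the other genes were set apart by scramble library 2. PCNA encodes the sliding clamp that tethers the polymerases to DNA and lies at chr20:5114953-5126626 on the minus strand. It was at 263 and 239.7 CPM in the scramble libraries and at 336 and 332 CPM in the miR-146a-5p libraries. All 4 values were tight within their group and the groups did not overlap. The means were 251 ± 16.6 CPM and 334 ± 2.93 CPM (SD, n = 2 each), a fold of 1.33. The log2 fold change was 0.41 ± 0.15 (SE), with an edgeR p of 0.0524 and an adjusted p of 0.970.

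POLA1, the catalytic subunit of the polymerase that makes the first stretch of each new strand, was at 111 and 30.2 CPM in the scramble libraries and at 74.9 and 78.4 CPM in the miR-146a-5p libraries. The miR-146a-5p values were close to each other and lay between controls that differed 3.68-fold. The means were 70.6 ± 57.2 CPM and 76.7 ± 2.47 CPM (SD, n = 2 each), and the log2 fold change was 0.12 ± 0.65 (SE; edgeR adjusted p = 0.985). POLA1 was at 0.690 of scramble library 1 and at 2.54 times scramble library 2, so its direction depends on the control used.

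RFC3, a subunit of the loader that opens the PCNA ring, was at 87.1 and 31.3 CPM against 75.1 and 80.1 CPM. Its miR-146a-5p values lay between controls that differed 2.79-fold, with means of 59.2 ± 39.5 CPM and 77.6 ± 3.53 CPM (SD, n = 2 each) and a log2 fold change of 0.39 ± 0.53 (SE; edgeR adjusted p = 0.970). POLE2, an accessory subunit of polymerase epsilon, was at 14.8 and 6.10 CPM against 15.8 and 13.2 CPM. Its controls differed 2.43-fold, and its means were 10.5 ± 6.17 CPM and 14.5 ± 1.85 CPM (SD, n = 2 each), with a log2 fold change of 0.47 ± 0.49 (SE; edgeR adjusted p = 0.970). In RFC3 and POLE2 alike, as in POLA1 and CCNE2, scramble library 2 was the low value.

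RFC4, another loader subunit, was at 53.8 and 33.1 CPM against 53.0 and 58.8 CPM, and its exons overlap those of the far more abundant EIF4A2 on the other strand. POLE, the catalytic subunit of polymerase epsilon, was at 123 and 150.4 CPM against 115 and 119.8 CPM, below both controls. FEN1, the nuclease that trims Okazaki fragments, was at 198 and 244 CPM against 215 and 195 CPM, an overlap. No gene of this machinery was called with both controls in the fit.

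The genes of nucleotide supply had a summed level above both controls. So did the G1/S regulators and the genes of the polymerases, clamp and clamp loader, while UHRF1 and SLBP together summed below both. A sum need not reflect all of its genes. Gene by gene, 2 of the 5 G1/S regulators (40%) were above both controls, against 18.0% of all tested genes. Of the 7 genes of the polymerases, clamp and clamp loader only 1 (14.3%), PCNA, was. UHRF1 was below both controls and SLBP overlapped. RRM1, the large subunit of ribonucleotide reductase, was at 305 and 232 CPM in the scramble libraries and at 324 and 331 CPM in the miR-146a-5p libraries. RRM2, its small subunit and the one that limits its activity through the cell cycle, was at 379 and 449 CPM against 462 and 463 CPM. By CPM both subunits were higher in both miR-146a-5p libraries, RRM1 by little against scramble library 1 and RRM2 by little against scramble library 2. By TPM RRM2 overlapped, at 183 and 236 TPM in the scramble libraries against 221 and 208 TPM. TYMS, which makes the thymidine precursor, was at 174 and 243 CPM against 195 and 204 CPM, between the controls. The 3 together summed to 859 and 924 CPM against 981 and 998 CPM.

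UHRF1, which brings the maintenance DNA methyltransferase to newly copied DNA and carries an 8-mer seed match, was at 154 and 189 CPM in the scramble libraries and at 140.1 and 137 CPM in the miR-146a-5p libraries. Both miR-146a-5p values were lower, with a log2 fold change of -0.31 ± 0.19 (SE; edgeR adjusted p = 0.970). SLBP, which binds the stem loop of histone mRNA and is made mainly in S phase, was at 122 and 156 CPM against 121 and 135 CPM, which overlap.

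When each control was taken alone, far more of the 29 differed from scramble library 2 than from scramble library 1. These fits compare the same 2 miR-146a-5p libraries with a single control, whose spread is assumed to be that of the miR-146a-5p pair, and they share those libraries with each other. Against scramble library 1 alone, edgeR called 4 of the 29 higher (13.8%), CCNE1, MCM6, PCNA and RRM2, against 10.2% of all tested genes. It called 1 lower (3.45%), POLA1, against 11.9% of all tested genes. Against scramble library 2 alone it called 10 higher (34.5%), where the share over all genes was 29.4%, and 14 lower (48.3%), where it was 27.4%. Against scramble library 1, 26 of the 29 levels (89.7%) were within 1.3-fold of the control, as were 70.5% of all tested genes. Against scramble library 2, 14 of the 29 (48.3%) were within 1.3-fold, as were 41.8% of all tested genes.

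Side by side, the fits gave CCNE1 a log2 fold change of 1.22 against scramble library 1 and 0.92 against scramble library 2. MCM6 had 0.69 and 0.78. PCNA had 0.36 and 0.48. For these 3 genes the choice of control altered the size and not the direction. That alone does not set them apart, as both miR-146a-5p libraries were above both controls for 18.0% of all tested genes. POLA1 had opposite signs, at -0.52 against scramble library 1 and 1.34 against scramble library 2. CDT1 and MCM2, the lowest of the 29 with both controls, had -0.86 and -0.68 against scramble library 2. Against scramble library 1 they had -0.04 and -0.19.

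**Figure D3:**
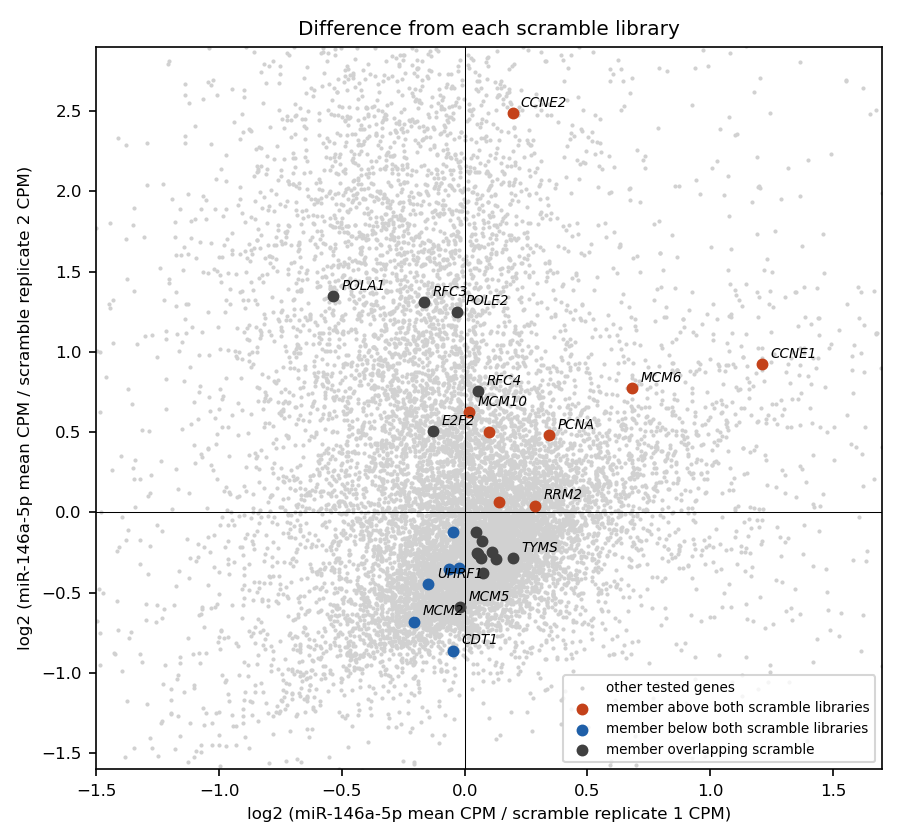
Log2 ratio of the mean miR-146a-5p CPM to scramble library 1 (horizontal) and to scramble library 2 (vertical), with 1 point per gene: the 29 genes (members) in red where above both controls, blue where below both and black where overlapping, and other tested genes within the axis limits in grey. The ratios share their numerator; CCNE1, MCM6 and PCNA are positive on both axes, while POLA1, at -0.53 and 1.35, changes sign between them.

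The gap between the controls followed the base composition of the transcripts, in the 29 genes as in all genes. Across the 29, the Pearson correlation of the G and C percentage with the log2 ratio of scramble library 2 to scramble library 1 was 0.70, and over the 14593 tested genes with both values it was 0.67. With the log2 ratio of miR-146a-5p to scramble library 2 it was -0.74 over the 29, and with the ratio to scramble library 1 it was -0.07. Over all tested genes with both values the same correlations were -0.63 and 0.22. These are descriptions across genes, which share the same libraries and are not independent replicates. In the fifth of genes poorest in G and C, scramble library 2 read lower than scramble library 1 by a median of 1.59 on the log2 scale, and the members there, CCNE2 and RFC3, had a median of -1.89. Among the fifth of genes richest in them the median over all genes was 0.52, and CDT1, E2F1 and MCM2 had a median of 0.48.

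MCM6 and PCNA have 43.1% and 45.3% G and C, below the median of 48.3% over all tested genes, while CCNE1 has 52.9%. With edgeR offsets fitted to G and C content and length, CCNE1 had a log2 fold change of 1.15, MCM6 0.54, PCNA 0.35 and MCM2 -0.31, all in the same direction as without them. The offsets brought CCNE2 from 0.92 to 0.59, CDT1 from -0.51 to -0.28 and RFC3 from 0.39 to 0.05. No gene of the 29 was called with them, and the part of base composition in these differences was not tested beyond these offsets.

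**Figure D4:**
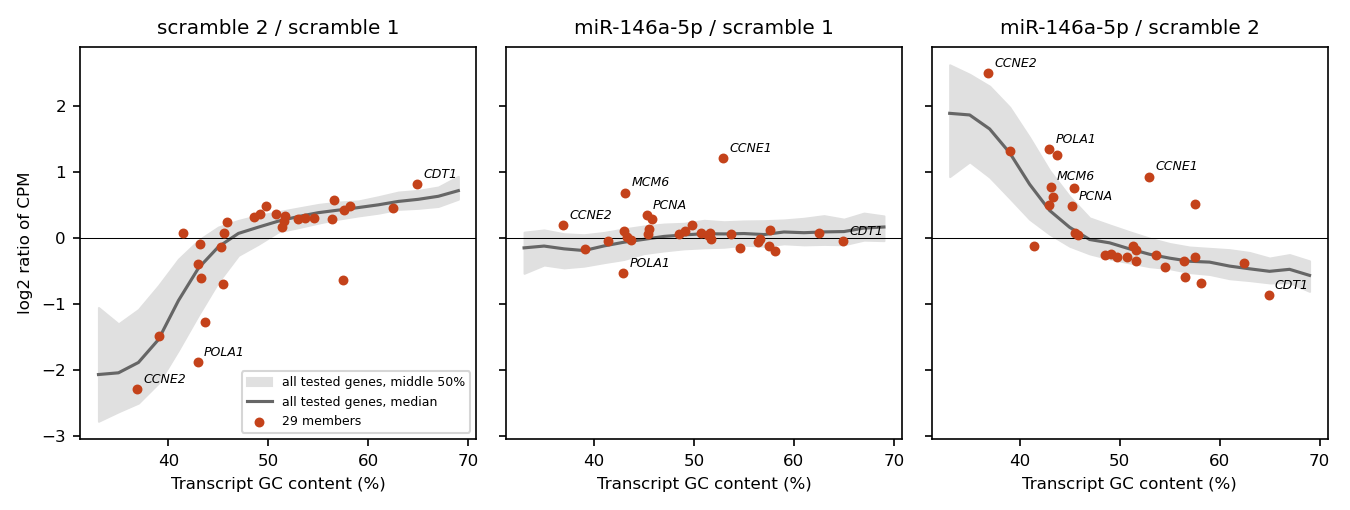
G and C percentage of each transcript (horizontal) against the log2 ratio of scramble library 2 to scramble library 1, of miR-146a-5p to scramble library 1, and of miR-146a-5p to scramble library 2 (vertical, 1 panel each), with the 29 genes (members) as red points over the median and middle 50% of all tested genes in grey. The 29 slope upwards in the first panel (r = 0.70), are nearly level in the second (r = -0.07) and slope downwards in the third (r = -0.74).

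Other genes of the same pathways were taken from lists of known components. With both controls in the fit, none of their genes was called by edgeR or DESeq2, and the edgeR adjusted p was 0.970 for each gene named here. Of all tested genes, 18.0% were above both controls and 18.0% below both, and the median log2 ratio was 0.00 against scramble library 1 and -0.01 against scramble library 2. Of 17 genes that recognise and fire origins, 4 (23.5%) were above both controls and 1 (5.88%) below both, with a median log2 fold change of 0.14. The median was 0.00 against scramble library 1 and 0.43 against scramble library 2, and 7 of the 17 (41.2%) differed over 2-fold between the controls. ORC3, an origin recognition subunit, was at 34.2 and 10.2 CPM against 44.1 and 49.7 CPM, and MTBP, a firing factor, at 36.6 and 7.16 CPM against 39.6 and 43.0 CPM. In both, scramble library 2 was again the low value. ORC1, at 44.6 and 51.0 CPM against 42.5 and 38.6 CPM, was the 1 below both controls.

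Of 24 other replisome genes, 7 (29.2%) were above both controls and 4 (16.7%) below both, with a median of 0.05 (0.08 against scramble library 1 and 0.00 against scramble library 2). TIMELESS, which steadies the fork, was at 152 and 173 CPM against 126 and 116 CPM, a log2 fold change of -0.42 ± 0.18 (SE). Taken against a single control, its log2 fold change was -0.31 against scramble library 1 and -0.51 against scramble library 2. POLD3 and the catalytic POLD1, the polymerase delta subunits among the 3 lowest p-values of the list, went opposite ways. POLD3 was at 76.0 and 52.2 CPM against 85.1 and 90.7 CPM, and POLD1 at 74.1 and 106.8 CPM against 69.7 and 63.6 CPM. The other subunits of this polymerase are not described here. POLD1 is rich in G and C, at 65.0%, and POLD3 poor, at 43.0%.

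Of 21 genes of RB, E2F and CDK2 control, 7 (33.3%) were above both controls and 4 (19.0%) below both, with a median of 0.04. The median was -0.09 against scramble library 1 and 0.16 against scramble library 2. CDKN1C, the CDK inhibitor p57, was at 4.47 and 8.83 CPM against 2.51 and 2.22 CPM, a log2 fold change of -1.49 ± 0.43 (SE). Its level was low, its transcript has 63.8% G and C, and scramble library 2 was the high value. The log2 fold change was -0.90 against scramble library 1 alone and -1.90 against scramble library 2 alone. CABLES1, which promotes inhibitory phosphorylation of CDKs, was at 7.77 and 10.2 CPM against 4.60 and 4.78 CPM, at -0.94 ± 0.26 (SE). WEE1, a kinase that places that phosphorylation, was at 33.2 and 33.5 CPM against 42.7 and 47.8 CPM. None of the 3 overlapped between groups, with p57 and CABLES1 lower and WEE1 higher, and CDKN1C and CABLES1 were the 2 genes of the 21 (9.52%) with an unadjusted edgeR p under 0.05, against 3.71% of all tested genes.

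Of 16 other genes of nucleotide synthesis, 3 (18.8%) were above both controls and 5 (31.3%) below both, with a median of -0.10 (0.01 against scramble library 1 and -0.19 against scramble library 2). CAD, which starts pyrimidine synthesis, was at 107 and 152 CPM against 95.8 and 90.4 CPM, and SHMT2, the mitochondrial serine enzyme of folate metabolism, at 216 and 299.8 CPM against 205 and 188 CPM. Both were lower in both miR-146a-5p libraries, and in both genes scramble library 2 was the high value. Of 12 chromatin assembly genes, 3 (25%) were above both and 1 (8.33%) below both, with a median of 0.06. That median was -0.00 against scramble library 1 and 0.18 against scramble library 2, and it turned to -0.04 with offsets for G and C content and length. HAT1, which acetylates new histone H4, was at 131 and 43.7 CPM against 152 and 156 CPM, and DNMT1, the maintenance methyltransferase that UHRF1 recruits, at 205 and 258 CPM against 198 and 189.8 CPM. ZNF367, at 73.8 and 34.7 CPM against 36.3 and 39.5 CPM, overlapped.

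Genes of the next cell cycle step, G2/M, are set beside them for comparison. Of 32 G2/M and mitosis genes, 18 (56.3%) were above both controls and 1 (3.13%) below both, with a median log2 fold change of 0.28. For the 29 replication genes the same figures were 27.6%, 20.7% and -0.06, and for all tested genes 18.0%, 18.0% and -0.00. Without scramble library 2 the G2/M median was 0.16 and that of the 29 was 0.06. The controls differed over 2-fold from each other for 14 of the 32 G2/M genes (43.8%) and for 4 of the 29 (13.8%), and the difference between the lists was not tested. UBE2C, which loads ubiquitin for the anaphase-promoting complex, was at 133 and 168 CPM against 203 and 206 CPM, TPX2, a spindle assembly factor, at 602 and 637 CPM against 734 and 759.98 CPM, and BUB3, of the spindle checkpoint, at 181 and 140.2 CPM against 216 and 222 CPM. No G2/M gene was called by edgeR or DESeq2 with both controls in the fit.

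**Figure D5:**
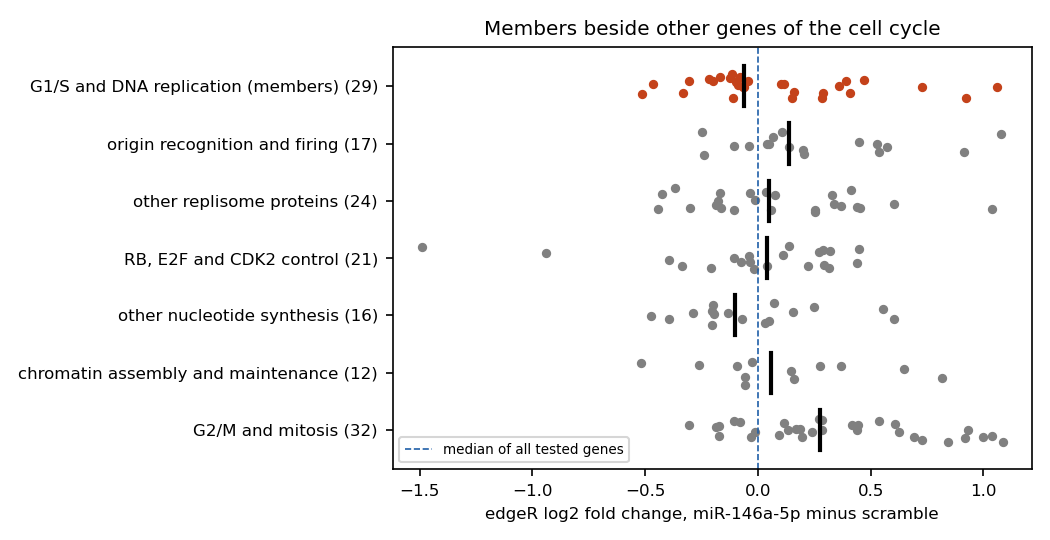
Log2 fold change of each tested gene of each list (edgeR, both controls), with 1 point per gene, a black bar at the list's median and a dashed line at the median of all tested genes. The G2/M list has the highest median, 0.28, and the 29 replication genes have a median of -0.06.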

How the data were processed

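Per the labels' protocols, 4 T24 libraries were built with Illumina's TruSeq RNA preparation, each from 1 µg of total RNA. HISAT2 2.0.1, HTSeq 0.6.1, cutadapt 1.9.1, DESeq2 and the hg19 build are credited to the submitters' processing notes; no annotation release is given in those sources. The authors deposited estimated counts per gene (34.3% of the values of genes above 0 in all 4 libraries are not whole), TPM values, and a comparison table with fold ratios, log2 fold changes and p-values. Counts were rounded to whole numbers and scaled to CPM by the library total. Genes passing filterByExpr (minimum count 10, minimum total 15) were tested with edgeR 4.0.16 (TMM, quasi-likelihood, R 4.3.3) at a Benjamini-Hochberg adjusted p under 0.05; DESeq2 1.42.0 was run on all genes. The scripts were tested on simulated counts. Transcript length, G and C percentage, 3′ UTRs and loci come from GENCODE release 29 (GRCh38), where 58457 of 60623 gene identifiers matched; no coordinates were taken from the deposited table. Of the 29 genes, 8 have counts that are not whole, and 9 share exon bases with another annotated gene. Full statistics were given to genes with an unadjusted edgeR p under 0.05, to the 6 largest fold changes among genes whose groups did not overlap, and to the 4 largest differences between scramble libraries; of each other list the 3 lowest p-values were named, except 1 gene that is not reported here. UHRF1 and GINS1, which hold 8-mer seed matches, were given their fold change and error too. The genes and lists were chosen with earlier results of these data known. Alternatives were other scalings, no filter, offsets for G and C content and length, DESeq2, TPM, a replicate block, and leaving out each library.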

Additional observations from a re-analysis of the deposited data

How the results depend on the processing

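None of the 29 genes was called by edgeR with RLE factors, library totals, no low-count filter, offsets, the replicate block or the crossed block, or by DESeq2, while the count over all genes was 0, except 52 with DESeq2 and 5 with the replicate block. Same-numbered libraries did not deviate together (correlation -0.15), so the numbers were not taken to pair the libraries; the crossed pairing, chosen after seeing the data, called 0 genes. Leaving out 1 library decided the counts: over all genes edgeR called 8 to 8413, and of the 29 it called 0 to 24, with 24 without scramble library 1, 5 without scramble library 2 and 0 without either miR-146a-5p library. DESeq2 fits added after seeing the data called 5349 genes and 21 of the 29 without scramble library 1, and 1107 genes and 5 of the 29 without scramble library 2. The median log2 fold change of the 29 ranged from -0.13 to 0.064 over these omissions. Over the same omissions, the number above every control left in the fit ranged from 9 to 15, and the number below from 7 to 16. With fewer libraries to separate, such counts rise for any list, and the share over all tested genes is not given for these fits. With all 4 libraries, 5 were above both controls by TPM. Over the alternatives that keep all 4 libraries, 22 of the 29 kept their sign. Those that did not were, with the offsets, E2F1 (0.0166), MCM3 (0.0020), MCM7 (0.0472) and CDC45 (0.0140), and, by TPM, E2F2 (-0.13), MCM4 (0.0453) and TYMS (0.0124); the cause was not tested. When a library was left out, the log2 fold change crossed 0 for E2F1 (-0.38 to 0.087), E2F2 (-0.23 to 0.50), MCM3 (-0.18 to 0.083), MCM4 (-0.26 to 0.064), MCM7 (-0.29 to 0.14), CDC45 (-0.13 to 0.056), GINS2 (-0.24 to 0.12), POLA1 (-0.52 to 1.34), POLE2 (-0.018 to 1.25), RFC3 (-0.16 to 1.31), FEN1 (-0.25 to 0.063), TYMS (-0.28 to 0.21) and SLBP (-0.29 to 0.077). E2F2 had 78 to 122 reads per library, the fewest of the 29, which limits its precision.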
